A study of Homo sapiens with 8 samples.

Results

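The long noncoding transcripts GAS5, ZFAS1, SNHG1, SNHG5, SNHG7, SNHG8, SNHG12, SNHG15, SNHG16 and SNHG29 were followed through indisulam treatment and acquired indisulam resistance in a pancreatic cancer cell line. These 10 genes were chosen by name, as noncoding hosts of small nucleolar RNAs (snoRNAs) and known substrates of nonsense-mediated decay, out of 60675 genes listed in the count tables. All 10 were found by their Ensembl identifiers, and all 10 were among the 16661 genes with enough reads to be tested. RNA was sequenced in 8 libraries from Panc10.05, an established human pancreatic cancer line, 2 from each of 4 groups. Parental cells were left untreated or received 2 µM of indisulam for 18 h. The resistant cells were a derivative of the same line, raised on increasing doses over months. Resistant indisulam cells were kept on 2 µM without a break, whereas resistant untreated cells had been moved to a drug holiday of 1 week. The drug comparison in resistant cells therefore set continuous exposure against withdrawal and not 18 h against none. There was 1 resistant line, so a difference between the lines cannot be told apart from a difference between this derivative and other possible ones. The growth and treatment notes in the labels name A549, a lung cancer line, but the titles and the cell line field give Panc10.05, and the titles were used. Both libraries of each group are described by the study as technical replicates, so p-values measure the spread between these libraries only.

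Indisulam is a sulfonamide that brings RBM39, a splicing factor, to the ubiquitin ligase receptor DCAF15, which leads to loss of RBM39 protein and to splicing errors. snoRNAs are short nucleolar RNAs that guide the chemical modification of ribosomal RNA. Box C/D snoRNAs guide methylation and box H/ACA snoRNAs guide pseudouridylation. Most human snoRNAs are cut out of the introns of a host transcript. In the noncoding hosts the introns hold the product, while the spliced exons carry only short reading frames, are engaged by ribosomes and are then removed by nonsense-mediated decay, the pathway that destroys transcripts with premature stop codons. The steady-state level of these hosts therefore reflects transcription, splicing and decay together. Many hosts, like ribosomal protein genes, begin with a run of pyrimidines at the start of transcription, the 5′ terminal oligopyrimidine tract, which couples their translation to growth signals.

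Because these genes are usually grouped by that promoter type, the sequence around the start of each host is shown first. The windows cover 35 bases before to 15 bases from the RefSeq start of the gene (GRCh38.p14, RefSeq), 5′ to 3′ on the strand of the gene, for the 9 hosts with an entry. Capitals mark the longest unbroken run of C and T that lies near the start, and the letters TATAA where they lie 40 to 20 bases before it.
GAS5, chr1:173869031-173869080, minus strand: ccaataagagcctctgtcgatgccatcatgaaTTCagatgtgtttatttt
ZFAS1, chr20:49278607-49278656, plus strand: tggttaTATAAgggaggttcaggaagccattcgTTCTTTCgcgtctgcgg
SNHG1, chr11:62855871-62855920, minus strand: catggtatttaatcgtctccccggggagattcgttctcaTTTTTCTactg
SNHG5, chr6:85678719-85678768, minus strand: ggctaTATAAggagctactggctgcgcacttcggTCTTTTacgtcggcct
SNHG7, chr9:136728170-136728219, minus strand: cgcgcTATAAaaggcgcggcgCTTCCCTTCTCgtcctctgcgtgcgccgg
SNHG8, chr4:118278727-118278776, plus strand: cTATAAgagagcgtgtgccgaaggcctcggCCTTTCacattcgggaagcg
SNHG12, chr1:28581859-28581908, minus strand: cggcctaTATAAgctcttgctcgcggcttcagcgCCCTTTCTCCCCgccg
SNHG16, chr17:76557729-76557778, plus strand: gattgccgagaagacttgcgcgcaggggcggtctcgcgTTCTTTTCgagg
SNHG29, chr17:16438952-16439001, plus strand: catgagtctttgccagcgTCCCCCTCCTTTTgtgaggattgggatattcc

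For each start, the longest run of C and T reaching within 10 bases of it was counted at full length. It was at least 6 bases long in 8 of the 9 hosts, and in 31.1% of all 35116 RefSeq promoters. The median run was 7 bases in the hosts and 4 over all promoters. GAS5 was the exception with 3 bases. Its RefSeq start lay outside the span of the gene in the annotation that was matched to the counts, so this window may not be the start in use here. In no host did the run begin exactly at the RefSeq start. The runs of GAS5, SNHG7 and SNHG29 ended before it, and those of SNHG1 and SNHG16 began after it. TATAA on the strand of the gene was found in 5 of the 9 hosts, ZFAS1, SNHG5, SNHG7, SNHG8 and SNHG12, and in 3.82% of all promoters. On the other strand, read as TTATA, it was found in 1 host, ZFAS1, where it overlaps the TATAA already counted, and in 1.61% of all promoters. These matches describe letters in a window and no factor binding was measured.

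The hosts differ in the snoRNAs they carry, which is used below to order the results. Hosts of box C/D snoRNAs were GAS5 (ENSG00000234741, chr1:173858559-173868882), ZFAS1 (ENSG00000177410, chr20:49278178-49299600, SNORD12 family), SNHG1 (ENSG00000255717, chr11:62851978-62855953, SNORD22, SNORD25, SNORD26, SNORD27, SNORD28 and SNORD30), SNHG5 (ENSG00000203875, chr6:85650491-85678932, SNORD50B), SNHG16 (ENSG00000163597, chr17:76557727-76670985, SNORD1 family) and SNHG29 (ENSG00000175061, chr17:16438767-16480249, SNORD49A, SNORD49B and SNORD65). Hosts of box H/ACA snoRNAs were SNHG7 (ENSG00000233016, chr9:136721366-136728184, SNORA17A and SNORA17B), SNHG8 (ENSG00000269893, chr4:118278703-118285316, SNORA24) and SNHG15 (ENSG00000232956, chr7:44983019-44986961, SNORA9). SNHG12 (ENSG00000197989, chr1:28578538-28583132) held both kinds, the H/ACA snoRNAs SNORA16A, SNORA44 and SNORA61 and the C/D snoRNA SNORD99. Positions are GRCh38. GAS5 is known for many intronic C/D snoRNAs and for accumulating in growth-arrested cells, but no snoRNA gene within it was matched in the tables.

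Each library held 65266253 to 108002436 reads in genes, and 65304 to 132981 of these fell in the 10 hosts. Levels are given as CPM, read counts relative to library size, after scaling with the trimmed mean of M values (TMM). Libraries of 1 group were not copies of each other, since their mean chi-square per gene was 2.05 to 6.03 over all genes and 2.89 to 10.2 over the hosts. RBM39 mRNA, measured as the transcript of the drug target, rose with indisulam by 1.11 ± 0.03 (SE) on the log2 scale in parental and by 0.94 ± 0.03 in resistant cells. All 7 epithelial markers were detected in every group. Their summed level was 6330 to 6520 CPM in parental and 10800 to 12200 CPM in resistant libraries. The 6 markers of other cell types summed to 1.35 to 3.99 CPM, almost all of it COL1A1, and PTPRC and SFTPB were at 0 in every library, where 0 reads allow up to 3.

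Summed over the 10 hosts, parental cells had 1215 and 1229 CPM untreated and 1323 and 1337 CPM on indisulam, and resistant cells had 999.6 and 1006 CPM untreated and 1044 and 1043 CPM on indisulam. The groups did not overlap in this sum. It was higher on the drug in each line, and in both conditions it was lower in the resistant line. With 2 libraries against 2, an exact permutation test cannot give a p below 0.333, so the sums were not tested, and SNHG29, SNHG16 and GAS5 supply most of the reads. In bulk samples, fewer cells of a type and less RNA per cell cannot be told apart.

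**Figure D1:**
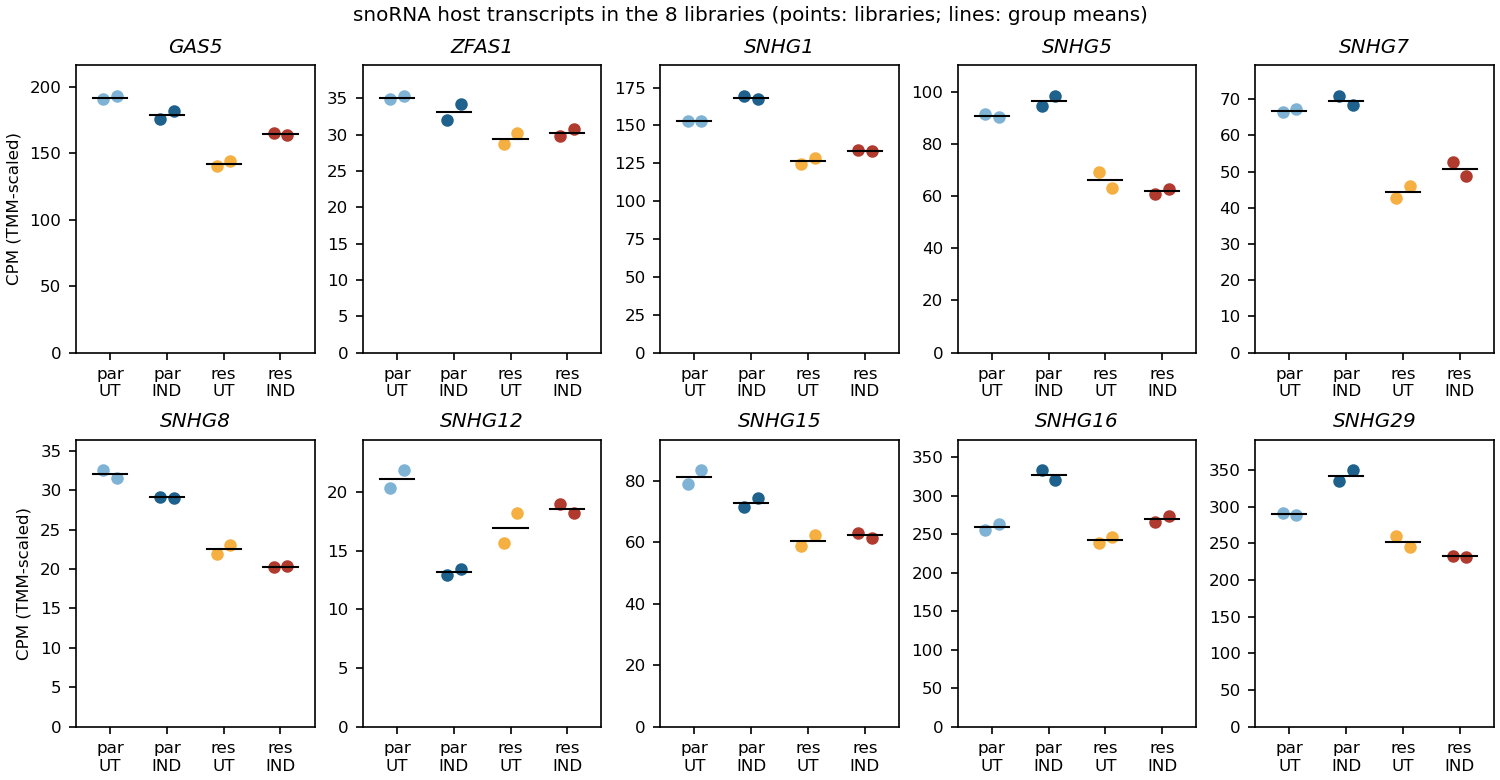
TMM-scaled CPM of each host in the 8 libraries, parental (par) or resistant (res), untreated (UT) or on indisulam (IND), each panel from 0 on its own axis with points for libraries and lines for group means. In most panels the 4 parental points stand above the 4 resistant points, whereas in the SNHG12 panel the parental indisulam points are the lowest, at 12.95 and 13.4 CPM.

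Indisulam for 18 h in parental cells moved the hosts in both directions. By edgeR's quasi-likelihood test with Benjamini-Hochberg adjustment across all genes, 4 of the 10 rose and 4 fell at an adjusted p under 0.05, where 58.2% of all tested genes were called, 31.6% higher and 26.6% lower. The median log2 fold change of the hosts was -0.01, and that of all tested genes was 0.01. The middle of the group thus lay near that of the transcriptome, while single hosts lay on either side.

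SNHG12 had by far the largest change of the 10 in parental cells. Its level was 20.32 and 21.83 CPM in untreated and 12.95 and 13.4 CPM in indisulam libraries, a fall of 37.4% (log2 fold change -0.68 ± 0.06 SE, adjusted p = 3.8e-08). The other host genes that fell did so by less. SNHG15 went from 79.01 and 83.36 CPM to 71.29 and 74.38 CPM (log2 fold change -0.16 ± 0.03, adjusted p = 0.00053), and SNHG8 from 32.51 and 31.52 CPM to 29.14 and 29.05 CPM (-0.14 ± 0.04, adjusted p = 0.0033). GAS5 fell from 190.6 and 193.1 CPM to 175.7 and 181.9 CPM (-0.10 ± 0.03, adjusted p = 0.0037). Treated and untreated libraries did not overlap for any of these genes. How many of all tested genes were separated in this way was not counted, in this or any other comparison. Of the H/ACA hosts only SNHG7 was not called, with 66.39 and 67.31 CPM against 70.85 and 68.27 CPM (0.06 ± 0.04, adjusted p = 0.21).

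The hosts that rose in parental cells all carried box C/D snoRNAs, as did most of the hosts, among them GAS5 and SNHG12, which fell. SNHG16 rose from 255.5 and 263.6 CPM to 332.8 and 319.9 CPM, which is 25.7% (log2 fold change 0.33 ± 0.03, adjusted p = 2.3e-09). SNHG29 rose from 291.1 and 289 CPM to 334.6 and 349.7 CPM (0.24 ± 0.03, adjusted p = 5.1e-07). SNHG1 was at 153.1 and 153 CPM without and at 169.4 and 167.3 CPM with the drug (0.14 ± 0.03, adjusted p = 0.00017). These 3 genes stood clear of their untreated libraries. SNHG5 sat at the threshold, with 91.5 and 90.43 CPM against 94.55 and 98.55 CPM (0.09 ± 0.04, adjusted p = 0.049). ZFAS1, a C/D host, was not called, at 34.9 and 35.33 CPM against 31.97 and 34.19 CPM (log2 fold change -0.09 ± 0.04, adjusted p = 0.066). Scaled by library totals alone, 3 hosts rose and 5 fell, since SNHG5 (0.02) was no longer called and ZFAS1 (-0.15) was. Leaving out any 1 of the 8 libraries ended the call of SNHG5 (adjusted p = 0.055 to 0.53), leaving out parental untreated replicate 2 ended that of GAS5 (adjusted p = 0.059), leaving out parental untreated replicate 1 ended that of SNHG8 (adjusted p = 0.066), and ZFAS1 was called in 5 of these 8 fits (adjusted p = 0.006 to 0.026).

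In resistant cells, continuous indisulam against the drug holiday raised 4 hosts and lowered 3, where 50.7% of all tested genes were called, 24.9% higher and 25.8% lower. The median over the hosts was 0.06 on the log2 scale and that of all tested genes 0.01. No host changed by more than 0.21 in size. SNHG12, the most changed host in parental cells, was not called here.

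GAS5 rose the most, from 140.3 and 144.1 CPM in resistant untreated to 165.4 and 163.5 CPM in resistant indisulam libraries (log2 fold change 0.21 ± 0.03, adjusted p = 1.9e-06), whereas it had fallen in parental cells. SNHG7 rose from 42.66 and 45.97 CPM to 52.64 and 48.72 CPM (0.19 ± 0.04, adjusted p = 0.00061) and SNHG16 from 237.9 and 245.9 CPM to 265.9 and 273 CPM (0.16 ± 0.03, adjusted p = 0.00013). SNHG1 was at 124.5 and 128.2 CPM off and 133.7 and 132.8 CPM on the drug (0.08 ± 0.03, adjusted p = 0.028). For these 4 genes every library on the drug was above every library off it, and the share of all tested genes separated likewise was not counted.

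Of the hosts that fell in resistant cells, SNHG8 went from 21.92 and 23.07 CPM to 20.25 and 20.34 CPM (log2 fold change -0.15 ± 0.04, adjusted p = 0.006), and SNHG29 from 259.7 and 244.7 CPM to 233.4 and 230.9 CPM (-0.12 ± 0.03, adjusted p = 0.0024). SNHG5 went from 69.27 and 63.07 CPM to 60.89 and 63 CPM (-0.10 ± 0.04, adjusted p = 0.048), so that its groups were separated by less than the spread of its untreated libraries. The hosts not called were SNHG12, at 15.67 and 18.23 CPM against 18.96 and 18.17 CPM (0.13 ± 0.06, adjusted p = 0.084), ZFAS1, at 28.7 and 30.17 CPM against 29.8 and 30.76 CPM (adjusted p = 0.41), and SNHG15, at 58.87 and 62.2 CPM against 62.95 and 61.45 CPM (adjusted p = 0.4). Libraries on and off the drug overlapped for each of these 3 genes. Scaled by library totals, 6 hosts rose and 1 fell: SNHG12 (0.18) and SNHG15 (0.09) were then called higher, SNHG5 (-0.05) and SNHG8 (-0.10) were not called. Without resistant untreated replicate 1 the count dropped to 4 (GAS5, SNHG7, SNHG8 and SNHG16), and SNHG1, SNHG5 and SNHG29 had adjusted p-values of 0.17, 0.71 and 0.09. SNHG1 and SNHG5 each also missed the threshold in 4 of the other 7 leave-one-out fits, SNHG8 did so without resistant untreated replicate 2 (adjusted p = 0.055), and SNHG12 was called without that library (0.23, adjusted p = 0.0023) or without parental indisulam replicate 1 (0.13, adjusted p = 0.049).

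Between the untreated lines all 10 hosts were lower in resistant than in parental cells, where 60.1% of all tested genes were called, 30.3% higher and 29.9% lower. The median was -0.37 on the log2 scale against -0.02 for all tested genes. The differences ran from -0.10 for SNHG16 to -0.59 for SNHG7. Both classes of host were among them, and the H/ACA hosts SNHG7 and SNHG8 had the largest values.

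SNHG7 was lower by 33.8% in resistant untreated cells, with 42.66 and 45.97 CPM against 66.39 and 67.31 CPM in parental untreated cells (log2 fold change -0.59 ± 0.04, edgeR adjusted p = 3.6e-11). SNHG8 was at 21.92 and 23.07 CPM against 32.51 and 31.52 CPM (-0.51 ± 0.04), and SNHG15 at 58.87 and 62.2 CPM against 79.01 and 83.36 CPM (-0.42 ± 0.04). Among the C/D hosts SNHG5 differed most, with 69.27 and 63.07 CPM against 91.5 and 90.43 CPM (-0.46 ± 0.04). GAS5 was close to it, at 140.3 and 144.1 CPM against 190.6 and 193.1 CPM (-0.43 ± 0.03). SNHG12 (-0.32 ± 0.06), SNHG1 (-0.28 ± 0.03), ZFAS1 (-0.26 ± 0.04) and SNHG29 (-0.20 ± 0.03) followed, and SNHG16 differed least (-0.10 ± 0.03, adjusted p = 0.0051). For each of the 10 genes the 2 resistant libraries were below the 2 parental libraries. The share of all tested genes separated likewise was not counted. All 10 were also called lower with DESeq2 size factors, with library totals and with the DESeq2 Wald test. Without parental untreated replicate 2 or resistant untreated replicate 1, SNHG16 was not called (adjusted p = 0.11 and 0.066).

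On indisulam, 9 hosts were lower and 1 was higher in resistant than in parental cells, where 69.5% of all tested genes were called, 34.9% lower and 34.6% higher. The median over the hosts was -0.31 on the log2 scale and 0.00 over all tested genes. SNHG12 was the host that was higher, at 18.96 and 18.17 CPM against 12.95 and 13.4 CPM (log2 fold change 0.49 ± 0.06, adjusted p = 1.8e-06). This comparison used the same parental indisulam libraries in which SNHG12 had fallen. The lowest values were those of SNHG5 (60.89 and 63 CPM against 94.55 and 98.55 CPM, -0.64 ± 0.04), SNHG29 (233.4 and 230.9 CPM against 334.6 and 349.7 CPM, -0.56 ± 0.03), SNHG8 (-0.52 ± 0.04) and SNHG7 (-0.46 ± 0.04). SNHG1 (-0.34 ± 0.03), SNHG16 (-0.28 ± 0.03) and SNHG15 (-0.23 ± 0.04) were lower by less. ZFAS1 (-0.13 ± 0.04, adjusted p = 0.0086) and GAS5 (-0.12 ± 0.03, adjusted p = 0.00067) came nearest to their parental level. With library totals, GAS5 (-0.03, adjusted p = 0.28) and ZFAS1 (-0.04, adjusted p = 0.41) were not called. The same held without parental indisulam replicate 2 (adjusted p = 0.096 and 0.37), and for ZFAS1 without resistant indisulam replicate 1 (adjusted p = 0.075).

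**Figure D2:**
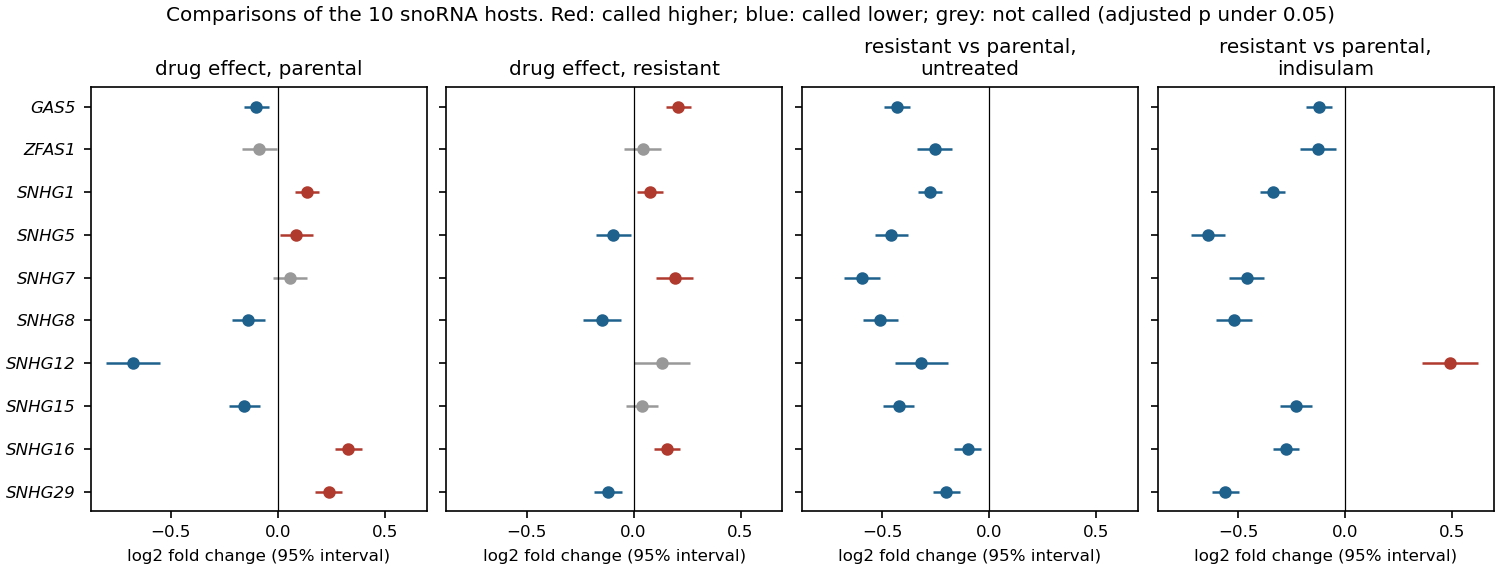
Log2 fold changes of the 10 hosts with 95% intervals in the drug comparison of each line and in the comparison of the lines off and on the drug; red and blue points passed the edgeR test at an adjusted p under 0.05 and grey points did not. All points of the untreated line comparison lie below 0, from -0.59 (SNHG7) to -0.10 (SNHG16), while in the drug comparisons they lie on both sides of 0.

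Parental and resistant cells differed in their response to the drug for 6 of the 10 hosts, tested as resistant minus parental response in the same fit, where 50.1% of all tested genes were called, 22.7% higher and 27.5% lower. The median was 0.06 for the hosts and 0.01 for all tested genes. Since treatment lasted 18 h in parental cells and was continuous in resistant cells, the line and the length of exposure cannot be told apart in these values. For SNHG12 the difference was 0.81 ± 0.09 on the log2 scale (edgeR adjusted p = 6.5e-07, 95% interval 0.63 to 0.99). GAS5 (0.31 ± 0.04, adjusted p = 1.2e-06) and SNHG15 (0.20 ± 0.05, adjusted p = 0.0027) also had the more positive response in resistant cells. The 3 hosts with the lower response in resistant cells were the C/D hosts SNHG29 (-0.36 ± 0.04, adjusted p = 4.6e-07), SNHG5 (-0.18 ± 0.05, adjusted p = 0.0078) and SNHG16 (-0.17 ± 0.04, adjusted p = 0.0014). GAS5, SNHG5 and SNHG29 were called in opposite directions in the 2 lines. For the hosts not called the 95% intervals were -0.13 to 0.11 for SNHG8, -0.14 to 0.02 for SNHG1, 0.01 to 0.25 for ZFAS1 and 0.02 to 0.25 for SNHG7, the latter 2 with adjusted p-values of 0.065 and 0.054. With library totals, which moved the median difference of all genes to 0.13, 5 hosts were higher and 1 lower: SNHG7 (0.25) and ZFAS1 (0.24) were called and SNHG5 (-0.07) and SNHG16 (-0.06) were not. SNHG5 was also lost without parental indisulam replicate 2, resistant untreated replicate 1 or resistant indisulam replicate 1 (adjusted p = 0.058, 0.17 and 0.08), SNHG7 was gained without parental indisulam replicate 1, resistant untreated replicate 2 or resistant indisulam replicate 2 (0.18, 0.20 and 0.21), and ZFAS1 without parental indisulam replicate 2, resistant untreated replicate 2 or resistant indisulam replicate 1 (0.20, 0.18 and 0.17).

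**Figure D3:**
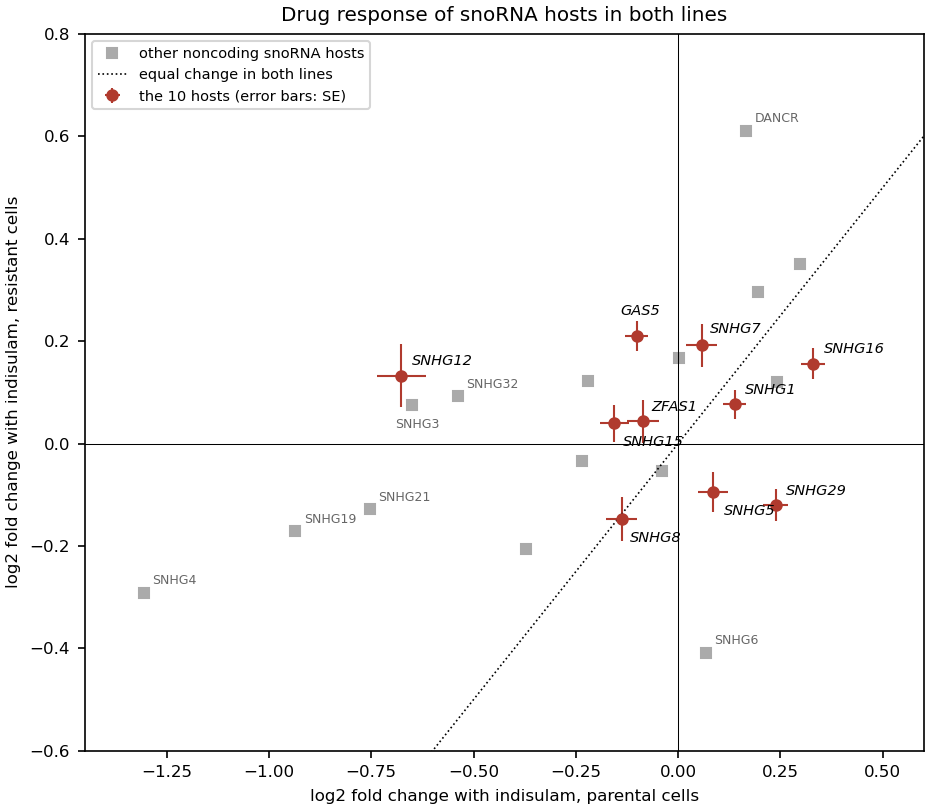
Log2 fold change with indisulam in resistant cells (y axis) against that in parental cells (x axis) for the 10 hosts (red, bars are SE) and 15 other noncoding snoRNA hosts (grey); the dotted line marks equal change. SNHG12 lies farthest from the dotted line among the 10, at -0.68 in parental and 0.13 in resistant cells, and SNHG29 lies on the other side of it, at 0.24 and -0.12.

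Ordered by group, the hosts fell into several patterns. For SNHG1, SNHG5, SNHG7 and SNHG29 the order began with parental indisulam and parental untreated, the first pair of SNHG7 not differing beyond its spread (adjusted p = 0.21). For GAS5, ZFAS1, SNHG8 and SNHG15 both parental groups were also above both resistant groups, with parental untreated on top. Neighbours that did not differ beyond their spread were both parental groups (adjusted p = 0.066) and both resistant groups (adjusted p = 0.41) of ZFAS1, and both resistant groups of SNHG15 (adjusted p = 0.4). SNHG16 ran from parental indisulam, 326.3 ± 9.1 CPM (SD, n = 2), through resistant indisulam, 269.4 ± 5.01 CPM, to parental untreated, 259.6 ± 5.73 CPM, and resistant untreated, 241.9 ± 5.65 CPM, the middle groups not differing (adjusted p = 0.11). SNHG12 ran from parental untreated, 21.07 ± 1.07 CPM, through resistant indisulam, 18.56 ± 0.559 CPM, and resistant untreated, 16.95 ± 1.81 CPM, which did not differ from each other (adjusted p = 0.084), to parental indisulam, 13.18 ± 0.319 CPM. Set directly against parental untreated cells, resistant cells on the drug were lower in 9 hosts, from -0.66 for SNHG8 to -0.19 for SNHG12, where 64.8% of all tested genes were called, 32.2% higher and 32.6% lower. Resistant untreated against parental indisulam cells, the groups that differ in both line and drug, gave 9 hosts lower and SNHG12 higher (0.36 ± 0.06, adjusted p = 8.9e-05), where 68.7% of all tested genes were called, 34% higher and 34.6% lower.

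Over the 8 libraries the levels of the hosts moved largely with the line. The Pearson correlation between pairs of hosts on the log2 CPM scale had a median of 0.795, and its highest value, 0.972, was between ZFAS1 and SNHG15. Its lowest value, -0.698, was between SNHG12 and SNHG16, the hosts with the largest fall and the largest rise in parental cells. Against the mean of the standardized levels of all 10, r was 0.826 to 0.977 for 8 hosts, 0.594 for SNHG16 and -0.079 for SNHG12. The mean itself was 0.609 to 0.833 in the parental and -0.996 to -0.575 in the resistant libraries. Among 9111 other genes whose log2 CPM averaged 3 or more, those most like that mean were RABGGTB (r = 0.997), TNPO2 (r = 0.9968), FRMD3 (r = 0.9959), HERC4 (r = 0.9955) and SMARCA2 (r = 0.9945). RABGGTB, which encodes a Rab geranylgeranyl transferase subunit, and TNPO2 themselves host snoRNAs, and SMARCA2 encodes a chromatin-remodelling ATPase. The share of snoRNA hosts among the 9111 genes was not counted. Protein-coding hosts as a class had a median of -0.04 between the untreated lines, with 43 higher and 60 lower in resistant cells. The libraries share 4 groups and 2 lines, so these correlations are not over 8 independent conditions.

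Reads assigned to a snoRNA gene could be followed in only 3 cases. The annotation placed 28 snoRNA genes within 9 of the hosts, and 25 of them overlapped a host exon of some transcript, where reads of host and snoRNA cannot be separated by a gene count. Of these 25, 24 had no reads in any library, and SNORD12B had at most 5. SNORD99 in SNHG12, SNORD1B in SNHG16 and SNORD12C in ZFAS1 lie in introns and had reads. They are shown (GRCh38, strand of the host) because reads over these intervals can be set beside those of their hosts. Capitals mark the box C letters TGATGA, where present, and the last CTGA, the box D letters.
SNORD99, chr1:28578749-28578822, minus strand: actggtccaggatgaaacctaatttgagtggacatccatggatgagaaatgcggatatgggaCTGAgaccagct
SNORD1B, chr17:76561109-76561192, plus strand: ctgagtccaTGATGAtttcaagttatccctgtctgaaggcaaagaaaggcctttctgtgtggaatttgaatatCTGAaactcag
SNORD12C, chr20:49278940-49279028, plus strand: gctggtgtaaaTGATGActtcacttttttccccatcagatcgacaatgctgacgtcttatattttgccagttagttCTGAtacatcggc

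The libraries were made from polyadenylated RNA, and mature snoRNAs have no poly(A) tail, so these reads do not measure mature snoRNA, and their source was not tested. SNORD99 had 99 and 104 reads in untreated and 46 and 36 in treated parental libraries, and 32 and 25 in untreated and 33 and 52 in treated resistant libraries. It fell with the drug in parental cells by 0.80 ± 0.18 on the log2 scale (edgeR adjusted p = 0.00065), as did its host SNHG12, and it was lower in resistant than in parental untreated cells (-1.19 ± 0.20, adjusted p = 1.7e-05). The difference of responses was 1.14 ± 0.30 (adjusted p = 0.0029), also in the direction of SNHG12. Per 1000 reads of SNHG12 there were 44.5 and 44.6 SNORD99 reads in untreated and 47.4 and 34.7 in treated parental libraries, and 27.6 and 21.1 in untreated and 25.8 and 29.8 in treated resistant libraries. So relative to its host, SNORD99 was lower in all resistant than in all parental libraries, although the exact 95% Poisson intervals, which cover counting error only, met between the lowest parental (24.3 to 48) and the highest resistant library (22.2 to 39).

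SNORD12C had 18 and 18 reads in untreated and 6 and 4 in treated parental libraries, and 15 and 16 in untreated and 20 and 15 in treated resistant libraries. It fell in parental cells (-1.32 ± 0.48, adjusted p = 0.023), while its host ZFAS1 had -0.09 and was not called. It was higher in resistant than in parental cells on the drug (1.69 ± 0.48, adjusted p = 0.0034), whereas ZFAS1 was lower. The difference of responses was 1.27 ± 0.62 (adjusted p = 0.092). SNORD1B had 6 to 22 reads per library and was not called in any comparison. At these depths a change of SNORD1B of the size seen for SNHG16 was not detectable.

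The 10 hosts were set beside 15 of 17 other noncoding snoRNA hosts that could be tested (SNHG14 and SNHG18 had too few reads). Of all tested genes, 58.2% were called for the drug in parental and 50.7% in resistant cells. Between the lines 60.1% were called untreated and 69.5% on the drug, and 50.1% in the difference of responses. In resistant cells, between the lines on the drug and in the difference, a smaller share of the 15 was called. Indisulam in parental cells raised 4 and lowered 7 of these 15, with a median of -0.22. SNHG4, host of an H/ACA snoRNA, fell from 84.25 and 84.77 CPM to 34.69 and 33.66 CPM (log2 fold change -1.31 ± 0.14, adjusted p = 0.0013), and SNHG19 (-0.94 ± 0.10), SNHG21 (-0.75 ± 0.17), SNHG3 (-0.65 ± 0.04) and SNHG32 (-0.54, adjusted p = 3.4e-09) fell by amounts around that of SNHG12. In resistant cells 4 rose and 2 fell, and none of those 5 was called. Between the untreated lines 11 of the 15 were lower and 1, SNHG11, was higher in resistant cells, with a median of -0.44, close to the -0.37 of the 10 hosts. DANCR, a noncoding RNA known for holding progenitor cells undifferentiated, was the most different, at 25.66 and 23.54 CPM against 78.86 and 77.91 CPM (-1.67, adjusted p = 5.9e-21). On the drug 6 were lower and 2 higher, with a median of -0.07. The difference of responses was higher for 6 and lower for 1, led by SNHG4 (1.01 ± 0.19), SNHG19 (0.76 ± 0.15) and SNHG3 (0.73 ± 0.06), the direction of SNHG12. SNHG3 shares 242 exonic bases with RCC1 and SNHG4 shares 626 with a MATR3 entry, both on the same strand, and SNHG21 shares 768 with another noncoding gene, so their counts are uncertain.

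snoRNA hosts that encode proteins are the larger class. Counted here was every protein-coding gene whose span holds a gene named SNORA, SNORD or SCARNA on the same strand. Of 180 such genes, 158 were tested. They include overlapping entries, such as EIF4A1 and SENP3-EIF4A1, and many ribosomal protein genes. NOP56, NOP58 and DKC1 are also among the snoRNA particle proteins below. The counts are therefore not over independent hosts. Of all tested genes, 31.6% were called higher and 26.6% lower with the drug in parental cells, and 24.9% and 25.8% in resistant cells. Between the lines the shares higher and lower were 30.3% and 29.9% untreated, and 34.6% and 34.9% on the drug. In the difference of responses they were 22.7% and 27.5%. In parental cells 93 rose and 21 fell with the drug (median 0.12), in resistant cells 28 rose and 80 fell (median -0.10), and the difference of responses was higher for 19 and lower for 103 (median -0.21). Between the lines 43 were higher and 60 lower in resistant cells when untreated (median -0.04), and 22 higher and 107 lower on the drug (median -0.23). The called genes with the largest changes in parental cells were RAMP1, a receptor activity modifying protein (-1.29 ± 0.05), DDX39B, an RNA export helicase (-1.02 ± 0.13), and EIF4A1, the translation initiation helicase (-0.95 ± 0.13). The largest differences of responses among the called genes were those of EIF4A1 (1.18 ± 0.17), DDX39B (0.79 ± 0.18) and OSCP1 (-0.75 ± 0.21). EIF4A1 had 215 to 638 reads per library. It shares 1468 of its exonic bases with the readthrough gene SENP3-EIF4A1 and 2187 with a noncoding gene, both on the same strand. DDX39B shares 2079 of 7007 exonic bases with the readthrough gene ATP6V1G2-DDX39B, also on the same strand. The counts of EIF4A1 and DDX39B are therefore uncertain.

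**Figure D4:**
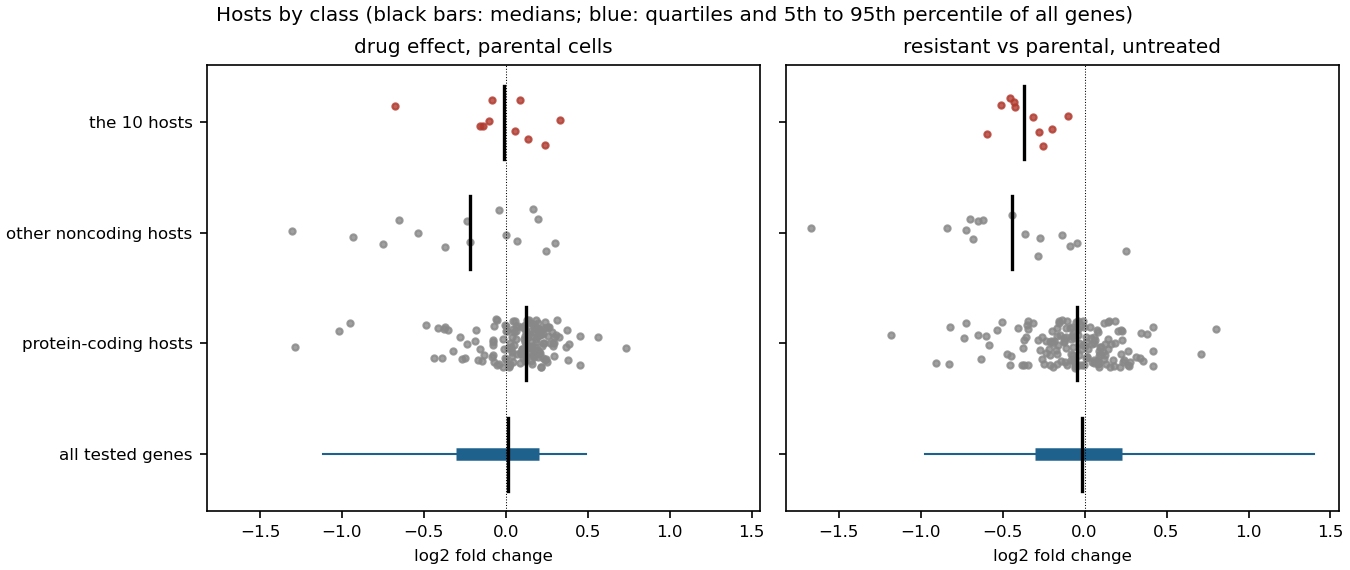
Log2 fold changes of the 10 hosts, 15 other noncoding hosts and 158 protein-coding hosts (points; black bars are medians), with the quartiles (thick) and the 5th to 95th percentile (thin) of all tested genes in blue, for the drug in parental cells (left) and for resistant against parental untreated cells (right). On the right the medians of both noncoding classes, -0.37 and -0.44, lie below those of the protein-coding hosts, -0.04, and of all genes, -0.02.

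The genes of the decay pathway and of the snoRNA particle were measured in the same libraries. For each list, the counts below stand beside the shares of all tested genes called, 58.2% for the drug in parental and 50.7% in resistant cells, 60.1% between the untreated lines, 69.5% between the lines on the drug and 50.1% for the difference of responses. Of 15 factors of nonsense-mediated decay, 12 rose and 2 fell with indisulam in parental cells, with a median of 0.19. SMG1, the kinase that phosphorylates UPF1, went from 133.4 and 139.1 CPM to 160.6 and 188.4 CPM (0.36 ± 0.10, adjusted p = 0.037), its partner SMG8 rose by 0.30 ± 0.03, and UPF3B, which links the exon junction complex to UPF1, by 0.28 ± 0.04. In resistant cells 1 rose and 5 fell (median -0.04), and between the untreated lines 3 were higher and 3 lower (median 0.01), both a smaller share than that of all tested genes. Between the lines 1 was higher and 10 lower on the drug (median -0.19). The difference of responses was higher for 1 and lower for 11 (median -0.22), with SMG8 (-0.42 ± 0.05), UPF2 (-0.33 ± 0.05) and MAGOH, an exon junction protein (-0.33 ± 0.04), the largest among those called.

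Of 14 other known decay substrates, 8 rose and 2 fell in parental cells (median 0.18) and 7 rose and 3 fell in resistant cells (median 0.08). TBL2 (0.41 ± 0.03), SRSF3 (0.40 ± 0.03) and SRSF7 (0.35 ± 0.03), the latter 2 being splicing factors that regulate themselves through poison exons, rose the most in parental cells. Counts per gene do not separate the poison-exon transcripts of such genes from their other transcripts, so these values do not measure the decayed form. In resistant cells the stress-response transcription factors ATF3 (1.18 ± 0.05) and DDIT3 (0.40 ± 0.05) rose, and with TBL2 (-0.33 ± 0.04) they led the difference of responses (0.97 ± 0.07 for ATF3 and 0.50 ± 0.07 for DDIT3), in which 4 were higher and 8 lower (median -0.15). Between the lines 5 were higher and 6 lower when untreated, and 5 higher and 7 lower on the drug.

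Of the 8 proteins of the snoRNA particle, 6 rose and 1 fell in parental cells (median 0.13), and 1 rose and 6 fell in resistant cells (median -0.21). NOP10, of the H/ACA particle, rose by 0.34 ± 0.03 and SNU13, of the C/D particle, by 0.26 ± 0.03 in parental cells, where the C/D protein NOP56 fell by 0.25 on the log2 scale. When untreated, 4 were higher and 2 lower in resistant cells (median 0.05), where all 10 hosts were lower, and on the drug none was higher and 7 were lower (median -0.26). The difference of responses was lower for 7 and higher for none, led by SNU13 (-0.58 ± 0.05), NHP2 (-0.50 ± 0.04) and the C/D methyltransferase FBL (-0.44 ± 0.04).

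Several hosts lie head to head with or across a gene on the other strand, and the strand setting of the counting is not given in the sources used here. Without strand, reads of such pairs cannot be told apart. ZFAS1 shares 249 exonic bases with ZNFX1, to which 83.55% of the reads of both genes were assigned, and ZNFX1 was higher in resistant untreated cells (1.02 ± 0.03) where ZFAS1 was lower. TRNAU1AP shares 8 bases with SNHG12 and fell in parental cells by 0.21 ± 0.05, less than SNHG12. PRSS12 shares 2487 bases with SNHG8 and held 12.44% of that pair. It rose in resistant cells on the drug (0.71 ± 0.10), where SNHG8 fell. In other comparisons the partners went the way of their host: ZNFX1 fell with the drug in parental cells by 0.12 on the log2 scale (adjusted p = 0.001), where ZFAS1 had -0.09, and PRSS12 was lower in resistant untreated cells (-0.41 ± 0.10, adjusted p = 0.00084), as was SNHG8 (-0.51). The part of shared reads in the values of the hosts was not tested.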

How the data were processed

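The authors sequenced polyadenylated RNA in 8 stranded, paired-end libraries of parental and resistant Panc10.05 cells and deposited raw read counts per Ensembl gene. Reads were trimmed with SeqPurge and aligned with HISAT2 2.2.1 to GRCh38. Picard and HTSeq are named in the submitters' processing notes. The strand setting and annotation release are not given in the sources used here. Each table ended with 9 lines of unassigned reads, among them marked duplicates. These were left out. Ambiguous reads were 5.612% to 7.328% of the reads assigned, ambiguous or outside genes. Symbols and positions came from GENCODE release 44, which matched 60419 of 60675 identifiers, and promoter sequences from RefSeq (GRCh38.p14), which has entries for 9 of the 10 hosts.

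From these counts, edgeR 4.0.16 (R 4.3.3) was run with filterByExpr (16661 genes kept), TMM scaling and a robust quasi-likelihood fit of the 4 group means to all 8 libraries (4 residual degrees of freedom). The contrasts were the drug in each line, the lines without and with the drug, and the difference of responses. A call needed an adjusted p (Benjamini-Hochberg) under 0.05. SE is the log2 fold change divided by the square root of F. Reads lack molecular identifiers, so depth bounds counting error only. The code was tested on simulated counts.

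The members and lists were chosen with earlier results of these data known. Named genes were the 10 hosts, RBM39, snoRNA genes within hosts that passed the filter, from each list the 3 called genes with the largest change in the parental drug comparison and in the difference of responses, and the 5 genes most like the hosts. SNHG6 (labelled in a plot), SNHG11, SNHG32, DANCR and the overlapping genes were named after their values were seen. Groups share replicate numbers in the titles. Deviations of same-numbered libraries correlated with r of -0.058 to 0.027, so the numbers did not pair the libraries.

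Alternatives were DESeq2 size factors, library totals, the Wald test of DESeq2 1.42.0, the replicate number as a block, no filter on counts, a filter on mean CPM (1 or more), a fit of only the groups compared, an adjusted p under 0.01, a test against 0.5 log2 units, and each library left out in turn. Plots were made in Python 3.11.15 (matplotlib 3.10.9).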

Additional observations from a re-analysis of the deposited data

Results flagged for a closer look

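The drug response differed between the lines for 6 of the 10 hosts by the edgeR test of the difference itself, with adjusted p-values from 4.6e-07 to 0.0078, where 50.1% of all tested genes were called, a share near that of the hosts. On the log2 scale, resistant minus parental, the difference was 0.81 for SNHG12, 0.31 for GAS5 and 0.20 for SNHG15, and it was -0.36 for SNHG29, -0.18 for SNHG5 and -0.17 for SNHG16. The values for SNHG12, GAS5, SNHG15 and SNHG29 were called in every scaling tried, whereas those for SNHG5 and SNHG16 were not called with library totals or with a filter on mean CPM of 1 or more (adjusted p = 0.14 and 0.076 with the filter), and SNHG5 also lost its call in 3 of the 8 fits with a library left out. Exposure differed as well, 18 h in parental cells and continuous in resistant cells, so line and exposure cannot be told apart.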

How the results depend on the processing

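Of 840 values of single hosts under the alternatives, 710 kept their direction and their side of the threshold, 28 were called where they had not been, 90 were no longer called and 12 changed sign, none of them called. Tested against 0.5 log2 units, the number of hosts called was 1 (SNHG12) in parental cells, 0 in resistant cells, 1 (SNHG7) between the untreated lines, 2 (SNHG5 and SNHG29) between the lines on the drug and 1 (SNHG12) in the difference of responses, while 1042, 879, 2582, 3509 and 908 of all 16661 tested genes were called. With each library left out in turn the counts were 6 to 8 in parental cells, 4 to 8 in resistant cells, 9 to 10 between the untreated lines, 8 to 10 between the lines on the drug and 5 to 8 in the difference, while over all tested genes they were 8159 to 9879, 6964 to 8704, 8656 to 10217, 10582 to 11850 and 7235 to 8329. In these fits the group with a single library is assumed to vary like the others. The changes of sign were SNHG7 in parental cells (-0.0091 with library totals), SNHG1 in the difference (0.054 with library totals and 0.024 with a stricter filter, mean CPM 1 or more) and SNHG8 in the difference (0.106 with library totals, 0.014 with no filter, 0.075 with the stricter filter, and -0.034 to 0.04 with a library left out). The causes were not tested. The replicate block gave 7, 6, 10, 10 and 6 hosts in the 5 comparisons against 8, 7, 10, 10 and 6 without it (9537, 8319, 9865, 11472 and 8206 of all tested genes with the block), and ended the calls of SNHG5 in parental (adjusted p = 0.07) and resistant cells (adjusted p = 0.071). It changed no other call of the hosts. Each group had 2 libraries, and the intronic snoRNAs had at most 104 reads in a library.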
